A study of Mus musculus with 16 samples.

Results

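The RNA regions described here are PGC-1α eCLIP clusters that lie in introns just downstream of 5′ splice sites. A cluster, a region of piled-up reads as the authors called it, belonged to the set when its midpoint lay 1 to 500 nt downstream of an exon. That exon came from the gene's GENCODE M21 protein-coding transcript with the longest coding sequence. The midpoint also had to be nearer to that exon than to the next, on the same strand, and in no exon of any transcript. Of 1331383 clusters in 8 libraries, 86249 met the rule, in 28291 introns of 8005 genes. Another 56445 clusters lay within 500 nt upstream of a 3′ splice site, and 720522 lay deeper, more than 500 nt from both ends of their intron.

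PGC-1α is a transcriptional coactivator of the fasting liver that also carries RNA-binding motifs. In eCLIP, ultraviolet light links RNA to protein, the protein is immunoprecipitated (IP), and the recovered RNA is sequenced beside a size-matched input. Primary hepatocytes from livers of C57BL/6J mice were crosslinked at 254 nm and 400 mJ/cm2. Glucagon is the hormone by which the pancreas signals fasting, and treated cells received it at 200 nM for 3 h, after overnight culture in starvation medium. The controls are labelled untreated, and whether they too were starved is not stated. Each IP library came from an upper or a lower band, which the labels do not define further, with 2 replicates per treatment and band. The labels do not tie replicates to cultures or animals. The p-values therefore cover the spread among these libraries alone, part or all of which may be technical. Age and sex are not in the labels.

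A 5′ splice site is the exon-intron border where U1 snRNP, the particle that starts spliceosome assembly, pairs with the new transcript. Introns are present in RNA only until splicing, so an intronic cluster comes from unspliced or partly spliced RNA or from an excised intron. The first intron is the one nearest to the start of transcription and is commonly the longest of a gene.

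The files give cluster numbers and no read depth. Glucagon libraries held 97629 and 207718 clusters (upper band) and 26279 and 188011 (lower band). Control libraries held 240002 and 260814 in the upper band and 132622 and 178308 in the lower band. Members numbered 5504, 14168, 1088 and 10810 with glucagon and 16301, 19197, 7441 and 11740 without it, upper band first. Glucagon lower band replicate 1 was the smallest library throughout. Among markers of hepatocytes, 3 of 10 genes (Cps1, Ass1 and Hnf4a) had a member. Alb, Apoa1, Apob, Ttr, Fgb, Cyp2e1 and Serpina1a had none. This pools all 8 libraries, and Cps1 had only 0, 2, 0 and 2 members in the control, upper band first. None of 7 Kupffer cell, 6 endothelial, 6 stellate cell or 5 cholangiocyte markers had one. Counts of members do not measure RNA level, so this is a limited check of cell type.

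The stretches printed next are examples of enriched members close to an annotated gene start, and other enriched members may look different. They were chosen because a RefSeq start window covered the whole cluster and enriched covered members came from at least 4 libraries. Enriched here means a log2 fold over input of at least 3 and a −log10 p of at least 3, both the authors' values. Sequences are printed 5′ to 3′ on the gene's strand, from RefSeq on GRCm38.p6, with runs of 3 or more G in capitals.
Hnrnpf, chr6:117907616-117907682, + strand: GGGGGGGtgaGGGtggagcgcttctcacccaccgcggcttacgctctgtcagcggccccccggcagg
Bbc3, chr7:16310209-16310280, + strand: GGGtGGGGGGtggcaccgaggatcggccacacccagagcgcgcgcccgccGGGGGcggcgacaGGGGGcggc
Tax1bp1, chr6:52714020-52714113, + strand: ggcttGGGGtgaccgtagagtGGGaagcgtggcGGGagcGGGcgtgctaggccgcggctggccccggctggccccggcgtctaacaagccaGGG
Fbxo11, chr17:88064521-88064596, − strand: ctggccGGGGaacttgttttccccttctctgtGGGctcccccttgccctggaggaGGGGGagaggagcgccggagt
Tmem184b, chr15:79403041-79403134, − strand: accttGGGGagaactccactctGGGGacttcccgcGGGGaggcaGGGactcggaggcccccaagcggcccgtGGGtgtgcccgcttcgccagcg
Spin1, chr13:51101417-51101459, + strand: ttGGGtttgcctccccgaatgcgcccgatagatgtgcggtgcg

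All of these stretches are in first introns. The Hnrnpf stretch had a log2 fold of 5.25 in control upper band replicate 2, with its midpoint 441 nt past the first exon, and enriched members in this window came from 7 libraries. Bbc3, which encodes the pro-apoptotic protein PUMA, had 4.72 in glucagon upper band replicate 2 (5 libraries). Tax1bp1, an autophagy receptor, had 5.0 in control upper band replicate 1, and Fbxo11, a ubiquitin ligase subunit, had 4.99 in control lower band replicate 1. Tmem184b, a membrane protein, and Spin1, a chromatin reader, had 4.52 each in control lower band replicate 2. G runs numbered 2, 4, 5, 3, 5 and 1 in these sequences, in the order printed.

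RefSeq windows, from 250 bases before to 50 after a gene start, covered 963 of 86249 members whole. Of 5482 enriched members they covered 104, in 53 genes. Within first introns, 100 enriched covered members were 72.7% G+C and 43.6% G, and 771 other covered members were 68.4% G+C and 39.3% G. A run of 3 or more G on the transcribed strand was present in 90% of the enriched and 79.6% of the other covered members. Taking only the cluster with the highest fold of each intron, the share was 92.2% of 51 introns with an enriched member and 79.2% of 255 without. Over all 32851 windows G+C was 53.8%, and 59.0% of their 60-base stretches held such a run. Per 100 bases, the runs numbered 4.78 in enriched and 4.14 in other covered members. Enriched members were longer, with a median of 59 to 82 nt by library, against 41.5 to 49 nt for all members. These covered members lie close to an annotated gene start and repeat across libraries, so the values describe them and are no test. The part of base composition in the enrichment was not tested.

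Clusters next to 5′ splice sites were more often enriched over input than other intronic clusters of the same library. The share of enriched members was 8.39% and 8.75% in the glucagon upper band libraries and 10.2% and 3.75% in those of the lower band. It was 4.85% and 5.42% in the control upper band and 7.86% and 7.22% in the control lower band. Over all clusters, the enriched share of the same libraries was 3.37%, 3.66%, 3.73% and 1.5% with glucagon and 2.05%, 2.5%, 3.1% and 3.19% in the control, again upper band first. Every library thus had a higher share among members than over all its clusters.

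Next to 3′ splice sites the enriched share was 2.73%, 2.02%, 5.99% and 0.95% with glucagon and 1.04%, 1.21%, 2.21% and 1.68% in the control. In deep introns it was 4.12%, 4.05%, 6.34% and 1.71% with glucagon and 2.16%, 2.58%, 3.88% and 3.75% in the control. Members exceeded the 3′ side by 4.83 ± 1.28 percentage points and deep introns by 3.48 ± 0.898 points (SD, n = 8 libraries), in 8 of 8 libraries each. With 1 cluster kept per intron side and library, that of the highest fold, the difference from deep introns was 0.269 points and did not pass (exact sign-flip test, adjusted p = 0.273). Keeping the highest fold can raise the share of a class with more clusters to pick from, and deep clusters are the more numerous. The part of this choice in the smaller difference was not tested. With all clusters, the exact two-sided sign-flip test over 8 libraries gave p = 0.00781 for both, the smallest it can give, and an adjusted p of 0.00911 over 7 such comparisons. Upper and lower band libraries entered as separate units, and whether they are independent is not known. In all, 5482 of 86249 members were enriched, in 1573 introns of 1458 genes.

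**Figure D1:**
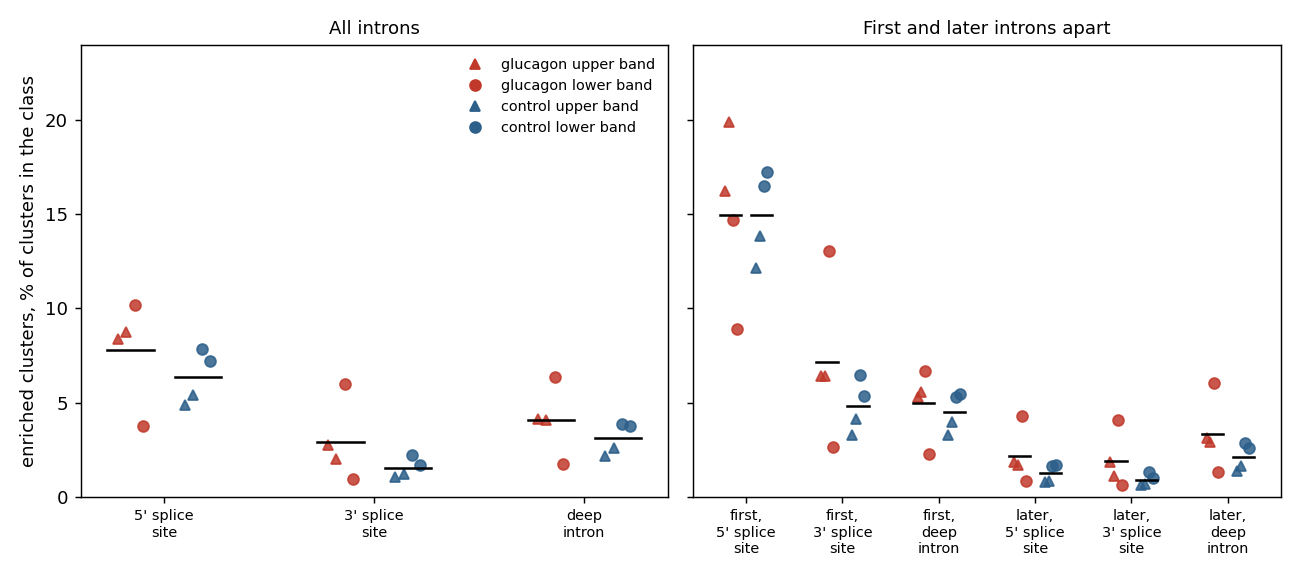
Share of clusters enriched over input (percent of the clusters in a class, y axis) for 5′ splice site, 3′ splice site and deep intron clusters, over all introns (left) and for first and later introns apart (right). Each point is 1 library, glucagon left of control, and lines are means of 4 libraries. The 5′ splice site clusters of first introns stand highest, at 8.92% to 19.9%, and those of later introns lie at 0.791% to 4.26%.

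First introns held most of the enriched members. They contained 37.6% of all members and 9.94% of the available bases (those within the window and free of exons), but 4820 of 5482 enriched members (87.9%). By library, 88.1%, 88.2%, 82.0% and 85.4% of enriched members were in first introns with glucagon, and 89.5%, 90.3%, 87.9% and 85.02% in the control. Enrichment reached 16.2%, 19.9%, 14.7% and 8.92% of first-intron members with glucagon and 12.2%, 13.8%, 16.5% and 17.2% in the control. In later introns it was 1.84%, 1.68%, 4.26% and 0.851% with glucagon and 0.791%, 0.814%, 1.64% and 1.68% in the control. The groups do not overlap: the lowest first-intron share was above the highest later-intron share. First exceeded later introns by 13.2 ± 3.21 points in 8 of 8 libraries (SD; exact sign-flip p = 0.00781, adjusted p = 0.00911).

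The excess over other intronic clusters was larger in first introns, and in later introns the one over deep clusters took the other sign. In first introns, 14.9% ± 3.36 of members were enriched, against 5.97% ± 3.23 on the 3′ side and 4.72% ± 1.44 in deep positions (SD, n = 8). The differences were 8.96 and 10.2 points (exact sign-flip p = 0.00781, adjusted p = 0.00977). In later introns, members were enriched in 1.7% ± 1.13, 3′ side clusters in 1.4% ± 1.16 and deep clusters in 2.73% ± 1.53 (SD, n = 8). The difference from the 3′ side was 0.291 points, and that from deep introns turned to −1.03 points, in which members were the lower class (exact sign-flip p = 0.00781 and adjusted p = 0.0130 for each). This split by intron was chosen after seeing the data. First introns held a mean of 4052 members and 1170 3′ side clusters per library, and later introns 6729 and 5885. The part of this unlike mix in the differences over all introns was not tested.

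The enriched share was lower at each step from intron 1 to introns 4 to 6. It was 14.9% in intron 1, 4.89% ± 2.12 in intron 2 and 2.18% ± 0.809 in intron 3. Introns 4 to 6 had 0.999% ± 0.388, introns 7 to 12 had 1.06% ± 1.18 and later ones 1.04% ± 1.56 (SD, n = 8). The last 3 values do not differ beyond their spread. Intron 2 held 8.34% ± 0.587 and intron 3 held 6.09% ± 0.512 of members.

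In later introns the share was lower beyond 2000 nt from the gene start than nearer to it. Members of later introns 600 to 1000 nt from the start of the chosen transcript were enriched in 10.1% ± 6.51, and those 1000 to 2000 nt away in 8.47% ± 2.76 (SD, n = 8). From 2000 to 10000 nt it was 2.00% ± 1.67, and beyond 10000 nt, where 40563 of the later-intron members lay, 0.974% ± 0.571. First-intron members 600 to 1000 nt from the start were enriched in 17.3% ± 3.90, and those within 300 nt in 11.6% ± 3.11. At 600 to 1000 nt the first-intron share was the higher one in 7 of 8 libraries, but the later-intron bin is small, with 12 to 164 members per library. The exception was glucagon lower band replicate 1, with the 12. From 1000 to 2000 nt first-intron members were enriched in 10.98% ± 5.79, which differs from the later-intron share by less than the spread. From 2000 to 10000 nt the first-intron share was the lower one, at 0.521% ± 1.47 (SD, n = 8), but only 133 first-intron members lay there. The parts of intron number and of distance to the start in the enrichment were not tested.

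Within the 500 nt window of first introns the share was lowest next to the splice site. It was 9.55% ± 2.36 in the first 100 nt, 14.0% ± 3.40 from 100 to 200 nt and 17.2% ± 4.22 from 200 to 300 nt. The bins from 300 to 400 and 400 to 500 nt had 17.1% ± 4.04 and 17.2% ± 3.90 (SD, n = 8). Just outside the window, at 500 to 1000 nt, it was 15.9% ± 3.24, which differs from the bin just inside by less than the spread. It then declined to 7.9% ± 1.84 at 1000 to 2000 nt, 4.22% ± 1.55 at 2000 to 5000 nt and 3.57% ± 1.22 beyond 10000 nt.

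**Figure D2:**
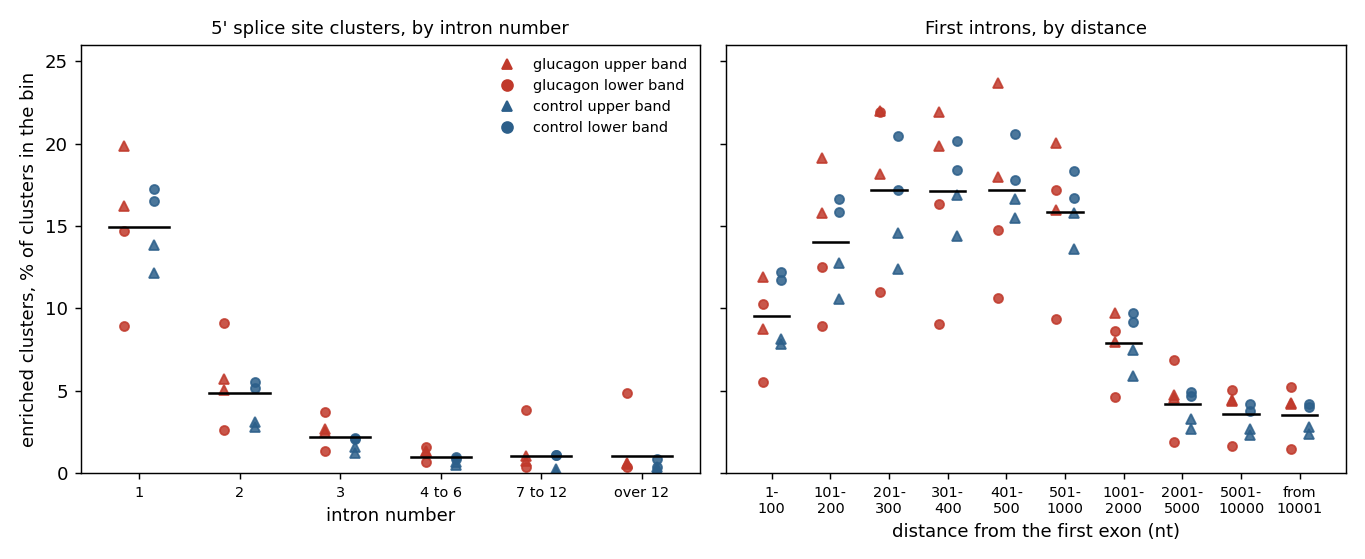
Enriched share (percent of clusters in the bin, y axis) of 5′ splice site clusters by intron number (left) and of first-intron clusters by distance from the first exon in nt (right). Points are libraries, glucagon left of control, and lines are means of 8 libraries. The share stands at 14.9% in intron 1 and near 1% from intron 4 on; in first introns it peaks near 17% between 200 and 500 nt and is 7.9% by 1000 to 2000 nt.

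Over all introns the first 100 nt were likewise less enriched than the rest of the window. Enriched shares within 100 nt were 5.06%, 5.32%, 8.11% and 2.52% with glucagon and 3.46%, 3.16%, 5.84% and 5.26% in the control. Beyond 100 nt they were 9.001%, 9.37%, 10.9% and 4.08% with glucagon and 5.08%, 5.82%, 8.39% and 7.75% in the control. The difference was −2.70 ± 0.914 points, with the nearer members lower in 8 of 8 libraries (SD; exact sign-flip p = 0.00781, adjusted p = 0.00911). In first introns alone it was −6.62 points and in later introns −0.290 points, which did not pass (exact sign-flip p = 0.289, n = 8).

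Cluster density by midpoint, enriched or not, was lowest next to the exon. The log2 density ratio of the first 100 nt over the bases beyond 400 nt was −0.35 ± 0.35 (SD, n = 8; exact sign-flip p = 0.0313). It took the other sign, 0.15, with clusters placed by their 5′ end, and did not pass without 6 of the 8 libraries in turn (adjusted exact sign-flip p = 0.0625). Averaged over 8 libraries it was 0.0825 ± 0.0392 clusters per kb of available intron in the first 50 nt, 0.319 ± 0.159 from 50 to 100 nt and 0.340 ± 0.193 from 100 to 200 nt. It was 0.318 ± 0.186, 0.285 ± 0.163 and 0.261 ± 0.147 per kb in the next 3 bins of 100 nt (SD, n = 8, a spread that carries the libraries' unequal cluster numbers). A midpoint close to the exon needs a short cluster or one that crosses into the exon. Median member length was 41.5 to 49 nt by library, and 0.798% to 2.67% of members crossed the exon border. The part of cluster length in the low density was not tested. On the 3′ side, density in the 50 nt nearest to the exon was 0.154 ± 0.0995 per kb (SD, n = 8).

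Density on the 5′ side was above that on the 3′ side in 8 of 8 libraries. It was 0.142, 0.364, 0.0280 and 0.278 per kb with glucagon, and 0.419, 0.494, 0.191 and 0.302 per kb in the control, upper band first. On the 3′ side it was 0.0823, 0.231, 0.0107 and 0.158 per kb with glucagon, and 0.288, 0.338, 0.107 and 0.176 per kb in the control. The mean log2 ratio was 0.79 ± 0.27 (SD; exact sign-flip p = 0.00781, adjusted p = 0.00911). It depended on what part of a cluster was placed: with its 5′ end in place of its midpoint, the ratio was 0.13 and did not pass (exact sign-flip test, adjusted p = 0.164).

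First introns were denser than later introns by a log2 ratio of 2.63 ± 0.44 in 8 of 8 libraries (SD; exact sign-flip p = 0.00781, adjusted p = 0.00911). Their density ran from 0.160 to 1.76 per kb over the libraries, and that of later introns from 0.0134 to 0.354 per kb. The available bases are those of genes with any cluster, and RNA levels are not in the files.

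**Figure D3:**
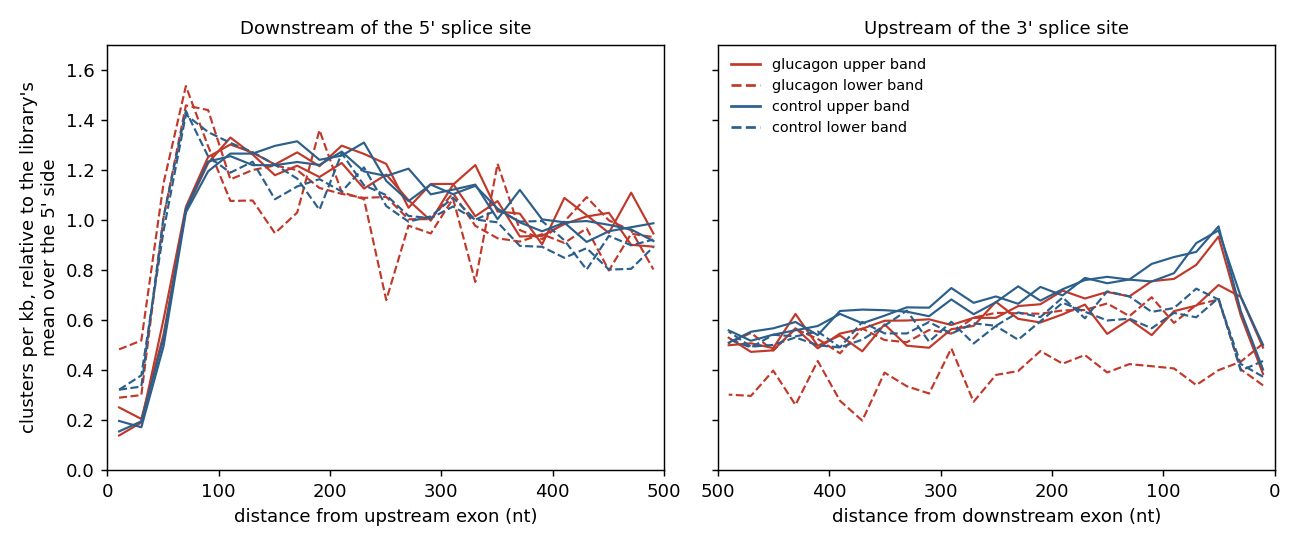
Clusters per kb of available intron, relative to the library's own mean over the 5′ side (y axis), by distance in nt from the upstream exon (left) and from the downstream exon (right). Each line is 1 library. On the left every line is lowest within the first 50 nt and is lower beyond 400 nt than at its peak; lower band lines are above upper band lines closest to the 5′ splice site.

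Bands stood apart in the members' position and overlapped in their enrichment. The share of members within 100 nt of the splice site was 15.4% and 15.2% in the glucagon upper band and 14.6% and 14.9% in the control upper band. Lower band libraries had 23.8% and 21.3% with glucagon and 20.7% and 21.1% in the control. All 4 upper band libraries were thus below all 4 lower band libraries, at 15.0% ± 0.390 and 21.7% ± 1.41 (SD, n = 4 each). The difference of −6.71 points had an exact permutation p of 0.0556, the smallest that 36 assignments of band labels within treatments can give, and an adjusted p of 0.222 over 4 comparisons. No band or treatment comparison can therefore pass 0.05 in this test. Median cluster length was 47 to 49 nt in upper band and 41.5 to 44 nt in lower band libraries, without overlap, and its part in the position difference was not tested.

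Enriched members made up 6.85% ± 2.00 in upper and 7.26% ± 2.67 in lower band libraries (SD, n = 4 each; exact permutation p = 0.944). The difference of −0.405 points took the other sign, at 1.21 points, without glucagon lower band replicate 1. Members were 9.92% ± 0.317 of intronic clusters in the upper and 10.1% ± 0.547 in the lower band (exact permutation p = 0.556). In first introns lay 38.9% ± 4.73 of upper and 42.6% ± 9.97 of lower band members (exact permutation p = 0.611).

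Over both bands, glucagon and control libraries overlapped in all 4 summary values. Members were 10.1% ± 0.516 of intronic clusters with glucagon and 9.99% ± 0.404 in the control (SD, n = 4 each; difference 0.0728 points, exact permutation p = 0.833). The enriched share was 7.77% ± 2.80 with glucagon and 6.34% ± 1.43 in the control (difference 1.44 points, exact permutation p = 0.556). In the upper band both glucagon libraries were above both controls, by 3.44 points on average, and in the lower band the mean difference was −0.568 points. Without glucagon lower band replicate 1 the difference over both bands was −0.179 points.

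Members within 100 nt made up 18.9% ± 4.295 with glucagon and 17.8% ± 3.57 in the control. Within bands the differences were 0.628 points in the upper and 1.67 points in the lower band, with both glucagon libraries above both controls in each (exact permutation p = 0.0556, adjusted p = 0.222). First introns held 45.5%, 38.8%, 56.9% and 35.9% of members with glucagon and 35.7%, 35.4%, 41.9% and 35.6% in the control. The difference of 7.16 points (exact permutation p = 0.222, adjusted p = 0.444) was 1.91 points without glucagon lower band replicate 1, the library with 56.9%.

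In all 8 libraries a larger share of enriched members than of enriched deep clusters was found again in the other replicate. This difference was not tested. In the glucagon upper band 57.6% of replicate 1 and 24.3% of replicate 2 members overlapped an enriched cluster of the other replicate on the same strand, against 30.8% and 14.3% of deep clusters. For the glucagon lower band the shares were 44.1% and 13.6% for members and 17.4% and 6.45% for deep clusters. In the control upper band they were 51.8% and 42.0% for members and 35.7% and 28.0% for deep clusters. In the control lower band they were 49.4% and 35.97% for members and 26.8% and 19.5% for deep clusters. The lists of a pair have unequal lengths, so the share is given of each.

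The authors' 4 deposited lists of reproducible peaks held 2167 (glucagon upper), 413 (glucagon lower), 3692 (control upper) and 2206 peaks (control lower). Members among them numbered 423, 54, 714 and 419, or 19.5%, 13.1%, 19.3% and 19.0% of each list. First introns held 93.1%, 92.6%, 92.2% and 89.7% of these. Peaks next to 3′ splice sites numbered 46, 5, 83 and 33. In all, 600 genes had a member peak in at least 1 list and 23 had one in all 4. These lists come from the same libraries and are no separate evidence.

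The enriched members of 22 introns were found in all 8 libraries, 20 of them first introns, and 730 of 1573 introns had them in 1 library only. Without glucagon lower band replicate 1, 74 introns had an enriched member in all 7 remaining libraries. The values below are the authors' highest log2 fold in the intron, upper band replicates 1 and 2 before lower band replicates 1 and 2. Equal folds recur between genes of a library. In glucagon lower band replicate 1, for example, 5.05 recurs for Kdm5b, Hnrnpa3 and Plekha7, and 5.27 for Eif4a1 and Nampt. The reads behind a fold are not given, so whether folds of libraries of unlike size can be compared is not known.

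The highest mean fold was that of Hnrnpf. Hnrnpf, a G-run-binding splicing regulator, had 4.86, 5.23, 4.69 and 4.71 with glucagon and 5.39, 6.53, 5.59 and 5.80 in the control, in its first intron on chromosome 6, from 117907209 to 117917469. All control values were above all glucagon values, and no test was made on a gene picked for its folds. In the authors' deposited reproducible lists of the upper band the order was the other way, with 5.86 for glucagon and 5.48 for the control. The authors' deposited table gave it 5.40 in the control lower band, and it was not among the 3 highest genes of the glucagon lower band list. Its 31 enriched members lay 37 to 448 nt from the exon. Eif4a1, the translation initiation helicase, had 5.13, 4.78, 5.27 and 4.68 with glucagon and 6.05, 4.69, 5.62 and 5.62 in the control. All 39 of its members were enriched, the most of any gene, at 60 to 499 nt in a short intron of 1302 bases on chromosome 11 (69670977 to 69672278). Hnrnpa3, a splicing regulator, had 3.60, 4.23, 5.05 and 3.03 with glucagon and 4.37, 4.05, 4.73 and 5.61 in the control. The treatments overlapped for Eif4a1 and Hnrnpa3.

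Ctnnb1, Hbp1 and Rai1 were also among the 5 introns with the highest mean fold. Ctnnb1, which encodes β-catenin, had 5.67, 5.41, 4.79 and 4.60 with glucagon and 5.68, 6.10, 4.99 and 4.64 in the control. Its highest cluster lay on chromosome 9 from 120933937 to 120933987, 324 nt past the first exon. Hbp1, a repressor of cell cycle genes, had 5.11, 4.72, 4.05 and 4.84 with glucagon and 5.52, 5.25, 4.63 and 4.93 in the control. Rai1, a nuclear regulator of clock and other genes, had 5.07, 5.13, 3.27 and 4.43 with glucagon and 5.20, 5.27, 5.99 and 4.42 in the control. The treatments overlapped for all 3 genes.

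Zmiz1, a coregulator of nuclear hormone receptors and SMADs, averaged 4.47 ± 0.68 over all libraries (SD, n = 8). Ptma, which encodes the chromatin-associated prothymosin α, averaged 4.45 ± 1.01 in an intron of only 898 bases. Kdm5b, a histone H3 lysine 4 demethylase, averaged 4.39 ± 0.57, and Nampt, the rate-limiting enzyme of NAD salvage, 4.32 ± 0.71. Outside intron 1, Plekha7, an adherens junction protein, averaged 4.31 ± 0.47 in intron 3 (SD, n = 8). The stress genes Cdkn1a, which encodes the cell cycle inhibitor p21, and Mafg, a small Maf partner of NRF2, averaged 4.0 ± 0.43 and 4.21 ± 0.45 (SD, n = 8 each).

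**Figure D4:**
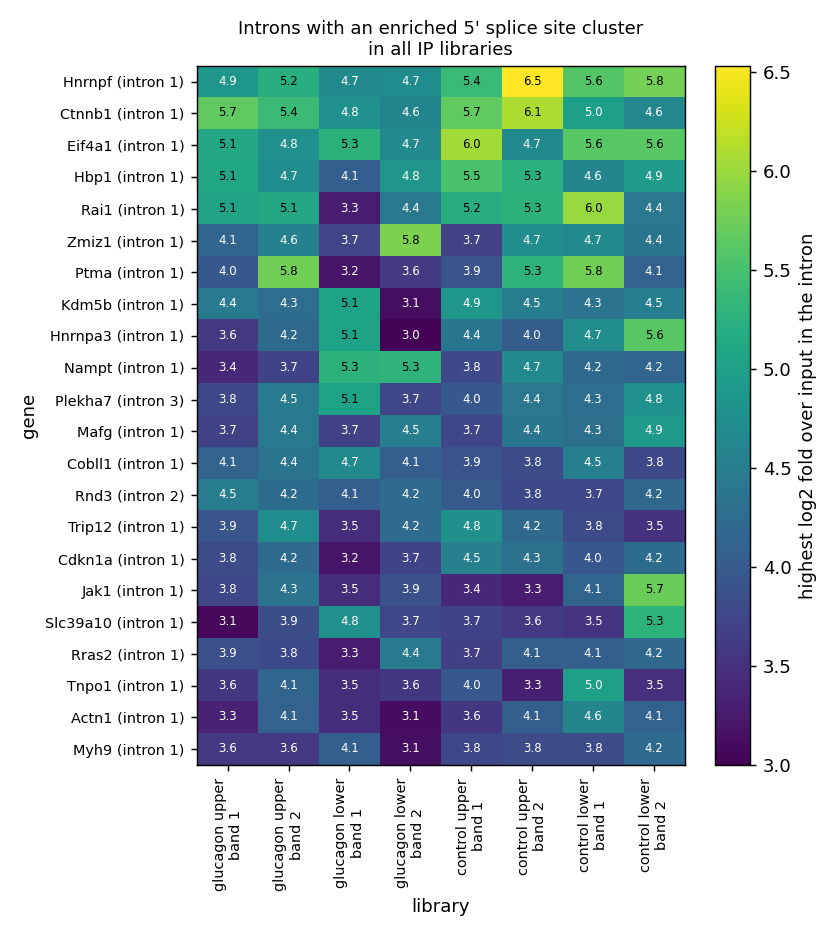
Highest log2 fold over input among the enriched 5′ splice site clusters of each intron (colour and printed value), for the 22 introns (rows, gene and intron number) with one in all 8 IP libraries (columns, glucagon left of control). Rows are ordered by the mean, from 5.35 for Hnrnpf to 3.75 for Myh9. The Hnrnpf row, picked for its folds, is higher in all control columns than in all glucagon columns. In the authors' reproducible lists of the upper band its order was the other way, 5.86 for glucagon and 5.48 for the control.

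Other genes stood out by number of enriched members or by fold in a reproducible list. Rras2, a Ras-family GTPase, had 37 enriched members of 41 over the 8 libraries. Rnf169, a ubiquitin ligase of the DNA damage response, had 30 of 41 and none in glucagon lower band replicate 1. Nfe2l2, which encodes the oxidative stress factor NRF2, had 27 of 39, and Tns1, a focal adhesion protein, 27 of 92. In the authors' reproducible lists the highest member peaks included Cdk17, a cyclin-dependent kinase (glucagon upper, log2 fold 5.87, chromosome 10, 93161554 to 93161669). Chd7, a chromatin remodeller, had 5.64 in the control lower list (chromosome 4, 8691638 to 8691700, 235 nt past exon 1). Ddx6, a helicase of mRNA decay, had 5.49 in the control upper list (chromosome 9, 44605098 to 44605250).

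Among genes of 5′ splice site recognition (U1 snRNP and its helpers), 19 of 20 had a member and 7 an enriched one. Most of their enriched members were in Hnrnpf, Luc7l3 and Luc7l2. Luc7l3, a U1-associated factor, had 13 enriched members of 25, with 1, 3, 0 and 2 in the glucagon libraries and 2, 3, 1 and 1 in the control. Of 50 other splicing regulators, 45 had a member and 18 an enriched one, among them Hnrnpu with 19 of 26 and Hnrnpk with 10 of 16. Over all genes with a member, 1458 of 8005 (18.2%) had an enriched one, and 36.8% and 40% did in these lists. Counted by member, 17.6% and 12.9% of the lists' members were enriched, against 6.36% of all members. The first of these shares rests largely on Hnrnpf, which held 31 of that list's 53 enriched members. No test was made on lists.

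The highest share of genes with an enriched member was that of nuclear receptors and coregulators, 16 of 30 genes (53.3%). By member it was 17.9% of 636, against 6.36% of all members. A gene with more members has more chances of an enriched one, and the shares of genes were not adjusted for this. Rxra, the common partner of metabolic nuclear receptors, had 19 enriched members of 22, with 3, 4, 0 and 1 in the glucagon and 4, 3, 2 and 2 in the control libraries. Ncoa2, a p160 coactivator, had 12 of 38. Lipid and cholesterol synthesis followed with 12 of 27 genes (44.4%). Among them, Hmgcs1, the cytosolic HMG-CoA synthase, had 0 enriched members in every glucagon library and 2, 2, 0 and 2 in the control. Its members per 1000 in the library were 0.363, 0.282, 0.919 and 0.370 with glucagon and 0.184, 0.104, 0.269 and 0.256 in the control. By that measure all glucagon values were the higher ones, as for 4.58% of the genes with at least 20 members. As plain counts the members of Hmgcs1 overlapped, at 2, 4, 1 and 4 with glucagon and 3, 2, 2 and 3 in the control. Its intronic clusters of any position numbered 4, 4, 3 and 6 with glucagon and 6, 8, 5 and 6 in the control. Counted by member, 5.23% of the lipid list's members were enriched, below the 6.36% of all members. Circadian clock genes had 6 of 18, insulin and FoxO signalling 9 of 28, and glucagon and cAMP response 9 of 32. By member, 13.03%, 7.59% and 16.2% were enriched in these lists, so insulin and FoxO signalling lay near the 6.36% of all members. Foxo3, a fasting transcription factor, had 13 enriched members of 17, and the whole insulin and FoxO list had 39 enriched members. Abundant secreted proteins stood lowest with 1 of 15 genes, Gc, the vitamin D-binding protein, which had 2 enriched members, both in control lower band replicate 2.

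Among glucagon response genes, enriched members were counted by treatment. Sik1, a kinase that cAMP induces and that inhibits the CRTC coactivators, had 1, 6, 1 and 4 enriched members with glucagon and 1, 1, 0 and 1 in the control. Its members per 1000 in the library were 0.908, 0.565, 0.919 and 0.648 with glucagon and 0.307, 0.208, 0.134 and 0.0852 in the control. All glucagon values were above all control values, as they were for 4.58% of the genes with at least 20 members. Its intronic clusters of any position numbered 13, 16, 5 and 17 with glucagon and 11, 8, 4 and 4 in the control. Klf15, a fasting transcription factor of amino acid catabolism, was chosen after its values were seen. It had 1, 5, 1 and 5 enriched members with glucagon and 0 in every control library. How many of all genes show such a split in enriched members was not counted. All intronic clusters of Klf15 numbered 16, 37, 5 and 32 with glucagon and 16, 12, 5 and 14 in the control. Cpt1a, the gatekeeper of mitochondrial fatty acid oxidation, had 1, 5, 1 and 5 enriched members with glucagon and 0, 3, 3 and 1 in the control, which overlap. Sik3, of the same list, had 0, 3, 0 and 2 with glucagon and 3, 1, 1 and 2 in the control, which also overlap.

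Genes were also compared by their members per 1000 members of the library. Of 1289 genes with at least 20 members, 59 (4.58%) were higher in all 4 glucagon libraries than in all 4 controls and 63 (4.89%) were lower. Without glucagon lower band replicate 1 the counts were 107 and 72. In these counts more RNA of a gene and more binding per RNA cannot be told apart, nor can more cells of a type and more RNA per cell.

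Cps1, the first enzyme of the urea cycle, had 30, 40, 13 and 43 members with glucagon and 0, 2, 0 and 2 in the control, none of them enriched. Its intronic clusters of any position numbered 149, 231, 78 and 206 with glucagon and 15, 21, 3 and 16 in the control. Per 1000 members Cps1 had 5.45, 2.82, 11.9 and 3.98 with glucagon and 0, 0.104, 0 and 0.170 in the control. Ass1, which makes argininosuccinate in the same cycle, had 1.82, 1.06, 9.19 and 1.48 per 1000 with glucagon and 0.307, 0.469, 0.538 and 0.256 in the control. Xdh, the xanthine dehydrogenase of purine breakdown, had 2.36, 1.76, 3.68 and 2.04 with glucagon and 0.245, 0, 0.134 and 0.0852 in the control. Both enzymes had 0 enriched members. Gpt2, the mitochondrial alanine aminotransferase, and Cbs, which condenses serine and homocysteine, had 1 enriched member each, in glucagon lower band replicate 2.

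On the lower side, Dst, a cytoskeletal linker, had 0.182, 0.494, 0 and 0.370 members per 1000 with glucagon and 1.47, 1.46, 1.48 and 1.02 in the control. Myo9b, an unconventional myosin, had 0.545, 0.635, 0 and 0.740 with glucagon and 1.10, 0.990, 1.21 and 1.19 in the control. Mdn1, a ribosome assembly ATPase, had 0.182, 0.494, 0 and 0.278 with glucagon and 0.613, 0.729, 1.08 and 0.937 in the control. Each of the 3 had 0 members in glucagon lower band replicate 1, the smallest library. Itpr1, a calcium release channel, had 0.363, 0.565, 0 and 0.370 with glucagon and 0.920, 1.198, 0.806 and 0.767 in the control. Svil, an actin-binding protein, had 0, 0.141, 0 and 0.278 with glucagon and 0.491, 0.313, 0.941 and 1.02 in the control. Enriched members were 0 for Dst, Mdn1 and Svil, 1 for Itpr1 and 10 for Myo9b. These genes were ranked by this contrast, so the values describe them and carry no test.

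**Figure D5:**
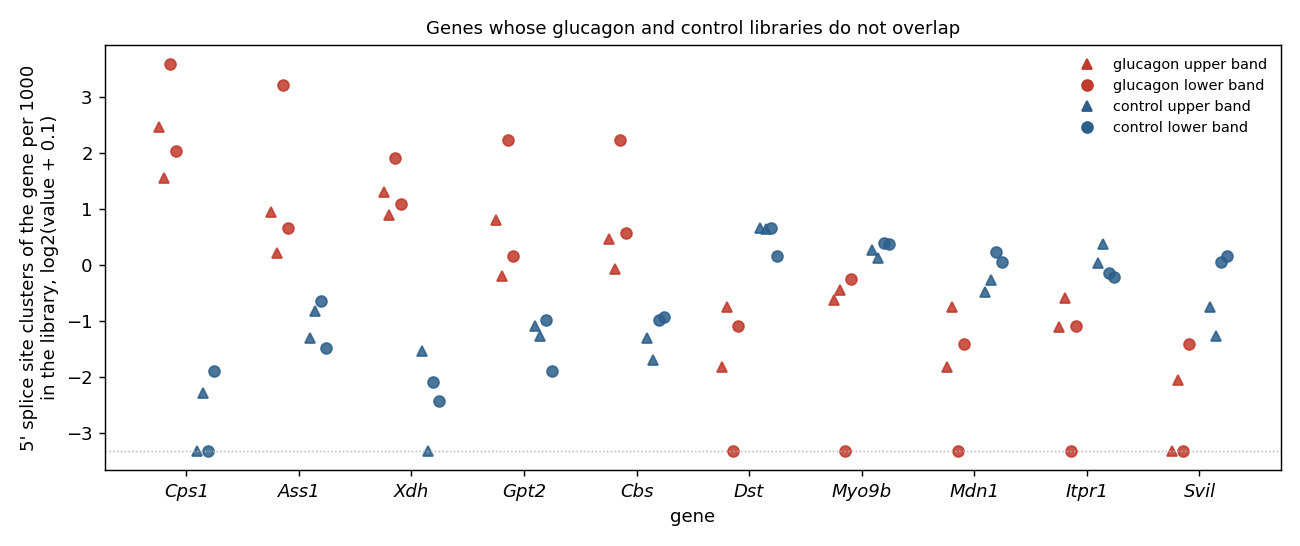
Members of 10 genes per 1000 members of the library, as log2(value + 0.1) (y axis), with glucagon left of control for each gene. Points are libraries and the dotted line marks 0 members. Cps1 to Cbs lie higher and Dst to Svil lower in all 4 glucagon libraries than in all 4 controls, and glucagon lower band 1 lies at either edge.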

How the data were processed

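The authors deposited a list of clusters for each of 8 IP libraries and 4 lists of reproducible peaks; the 8 inputs were not analysed here apart from the folds over them. The submitters' processing notes name cutadapt, STAR and the mm10 build; the peak caller is not given in the sources used here. The deposited files have no header. From the values, 1 deposited column was read as a −log10 p-value capped at 400 and the other as a log2 fold over input.

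Clusters were placed by midpoint in GENCODE M21 (GRCm38, the same assembly as mm10) in 21757 chosen transcripts with 187839 introns. Transcripts tagged as readthrough were not chosen. Densities use the intron bases free of exons in 10819 genes with a cluster, 38877.3 kb on the 5′ side and 40558.9 kb on the 3′ side; 14 members also met the 3′ side rule for another gene. Libraries were compared by exact sign flips (256 assignments) and treatments and bands by exact permutation (36 assignments), with Benjamini-Hochberg adjustment over families of 7, 4 and 4. Clopper-Pearson 95% intervals (scipy 1.17.1) of the enriched share, which cover counting error only, ran from 8.47% to 12.2% in glucagon lower band replicate 1 and from 5.11% to 5.75% in control upper band replicate 2. Placement and tests were checked on simulated data.

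Named genes were those with most enriched members, the highest mean fold among introns found in all libraries, the top 3 of each reproducible list, the 5 largest differences per direction without overlap, and up to 3 per gene list; Klf15, Plekha7 and the genes of printed sequences were chosen after their values were seen. The members and lists were chosen with earlier results of these data known. Planned tests of the splice site motif and of base composition were not run, because no mm10 genome was used here. Calculations ran in Python 3.11.15 with pandas 2.3.3 and numpy 2.4.6; figures were drawn with matplotlib 3.10.9.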

Additional observations from a re-analysis of the deposited data

Results flagged for a closer look

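One library stood apart from the others of its treatment. In control lower band replicate 1, 41.9% of members were in first introns, against 35.7% and 35.4% in the control upper band and 35.6% in control lower band replicate 2. The gap to the nearest of the other 3 controls was 0.958 of the whole range of the 4 libraries. Chance passes the limit used for such gaps in about 1 of 20 groups.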

How the results depend on the processing

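The comparisons were repeated under other thresholds, windows, exon masks and placements, without each library in turn and, as choices made after seeing the data, within first or later introns and without the smallest library. Of these repeats 179 kept their direction and side of the threshold or, for counts, stayed within 1.5 times, 16 took the other sign, 10 no longer passed and 2 counts moved further. The cause of these changes was not tested. No treatment or band comparison could pass 0.05 in any repeat, so these counted as kept unless their sign changed. With a log2 fold of at least 2 or a −log10 p of at least 5, the enriched share of upper minus lower band was 1.75 or 0.890 points. With the cluster's 5′ end, the log2 density ratio of the first 100 nt over beyond 400 nt was 0.15, against −0.35 ± 0.35 with the midpoint (SD, n = 8; exact sign-flip p = 0.0313, positive in 2 libraries). That of the 5′ over the 3′ side was 0.13, and the share of intronic clusters was −0.216 points for glucagon minus control and 0.261 points for upper minus lower band. With 1 cluster per intron side and library, that of the highest fold, the enriched share of members minus deep clusters was 0.269 points and the first density ratio −0.27. The share of intronic clusters was then −1.86 points (treatment) and 1.38 points (band). In later introns alone, members minus deep clusters was −1.03 points and within minus beyond 100 nt −0.290 points. Without each library in turn, the first density ratio ran from −0.40 to −0.30 and did not pass without 6 of the libraries (adjusted exact sign-flip p = 0.0625). Likewise for treatment, the share of intronic clusters ran from −0.171 to 0.317 points and the enriched share from −0.179 to 3.05 points. For band, the share of intronic clusters ran from −0.470 to 0.0176, the enriched share from −2.02 to 1.21 and the first-intron share from −8.96 to 1.53 points. Without glucagon lower band replicate 1, 107 genes in place of 59 were higher in every glucagon library, and 74 introns in place of 22 had an enriched member in every library. The planned tests of splice site sequence and base composition were not run. Same-numbered libraries did not deviate together in every pair of groups (correlations over 1289 genes from −0.0104 to 0.190), so numbers were not taken as pairs. With the number as a replicate block, the first-intron share of glucagon minus control stayed at 7.16 points (exact sign-flip p = 0.125, the smallest 4 pairs allow). No call could change under the block. Read depth is unknown, and the smallest library has 1088 members, which limits what its shares can show.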
